A study of Homo sapiens with 6 samples.

Results

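The genes described here are the oxygen-sensing transcription factors HIF1A, EPAS1 and their partner ARNT, the oxygen sensors EGLN1 and EGLN3, and 5 target genes of the pathway, VEGFA, BNIP3, BNIP3L, CA9 and KDM3A. They are the 10 genes of 56794 in the table whose symbol equals one of these names, and the level of each is the sum over its transcripts. RNA was sequenced from HEK293, a human embryonic kidney cell line used to make recombinant protein. The 3 parental libraries came from HEK293 cells that express luciferase, and the 3 mutant libraries from HEK293 cells that express luciferase and in which the CASP8AP2 gene was deleted with CRISPR, so both groups carry the reporter. Both groups grew in the same medium and incubator settings; no hypoxia treatment is named, and whether the mutant cells are 1 clone is not stated in the sources used here. Nothing in the labels says that the libraries of a group came from separate cultures, so the p-values may measure technical spread alone. The table holds group means, which leave the spread between libraries unknown for every level.

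In well-oxygenated cells, EGLN enzymes hydroxylate prolines of HIF1A and EPAS1 (also called HIF-2 alpha), and the VHL ubiquitin ligase then marks these proteins for destruction. When oxygen is short, the alpha subunit persists, pairs with ARNT and binds hypoxia response elements, short DNA sites built around ACGTG or GCGTG. The main step of control is therefore protein stability, which RNA levels do not measure, and the target genes are the usual RNA readout of the pathway. In cultured kidney-derived cells the pathway is known for switching on glucose uptake, angiogenic signals, acid export and mitophagy, the removal of mitochondria by autophagy.

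Both cores were searched on both strands in the 250 bases before each RefSeq start of a gene (build GRCh38.p14). This gave a sequence for 8 of the 10 genes, all but VEGFA and BNIP3L. At least 1 match stood in 6 of the 8 genes, read over all windows of a gene. HIF1A and KDM3A have more than 1 window, and another HIF1A window held no match. Of all 35116 single windows 43.2% held a match, which is a share of windows and not of genes. ACGTG was in 18.5% of windows and GCGTG in 32.2%, with some windows holding both. A stretch of 30 bases around the matches is shown for these 6 genes so that the letters of the cores stand next to the levels described below. Capitals mark a core or its reverse complement, CACGT or CACGC, each written 5′ to 3′ on the strand of the gene.
HIF1A (chr14:61695297-61695326, plus strand): tggctgagagcgGCGTGggctggggtgggg
EPAS1 (chr2:46297278-46297307, plus strand): gggcctgccggcGCGTGcccgcccacacac
EGLN1 (chr1:231422288-231422317, minus strand): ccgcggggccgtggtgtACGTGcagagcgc
BNIP3 (chr10:131982037-131982066, minus strand): CACGCgccgCACGTGccaCACGCaccccac
CA9 (chr9:35673898-35673927, plus strand): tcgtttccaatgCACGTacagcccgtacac
KDM3A (chr2:86441333-86441362, plus strand): ccgggaggctgtGCGTGtcttgtgagagct
BNIP3 held the most matches, 4 of GCGTG and 2 of ACGTG, the latter being both strands of the palindrome CACGTG and so overlapping each other. In CA9 the match lay 18 to 14 bases before the RefSeq start, and in EGLN1 13 to 9 bases before it. The gene limits given below come from GENCODE. For EPAS1, EGLN1, CA9 and KDM3A they reach further upstream than the RefSeq start, and the matches lie inside them. ARNT and EGLN3 had neither sequence in this window. A match describes the letters only, and binding was not measured.

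Library depth, estimated from the size of 1 read, was 13300000 to 57500000 reads on transcripts in the mutant group and 9190000 to 15310000 reads in the parental group. CASP8AP2 itself (chromosome 6, 89829894 to 89874436, build hg38) had a mutant level of 15.7 and a parental level of 15.9 by group mean, so its RNA does not check the labels, and the sources used here do not say where in the gene the deletion lies. Of 11 genes that mark HEK293 cells 10 were measured, with PAX2 at 3.08 against 1.80 and VIM at 530 against 425, while PAX8 was near 0. The neurofilament markers lay far apart, NEFL at 434 against 35.7 and NEFM at 0.0690 against 8.63. Of 12 markers of blood, liver, endothelial, fibroblast, muscle and islet cells 9 had values and 8 of these were under 1 in both groups. COL1A1, of fibroblasts, had 5.82 against 2.17, and the markers summed to 6.51 against 2.96. What part this has in the hypoxia genes was not tested. Genes poor in G and C lay lower in the mutant group (median log2 ratio -0.14 in the twentieth of genes with the lowest GC content, 0.25 in that with the highest). Fewer cells that express a gene and less of its RNA per cell cannot be told apart in such bulk samples.

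Most of the hypoxia genes had a lower mean in the mutant group, and the 2 that stood out were BNIP3L and KDM3A. BNIP3L, a receptor that delivers mitochondria to autophagy, was at 9.88 in the mutant against 21.2 in the parental group, and KDM3A, a histone demethylase, at 7.39 against 12.5. EGLN1 was at 7.65 against 11.9, while HIF1A, ARNT and BNIP3 lay close to their parental levels. All levels are length-scaled abundances with the authors' added 1 taken off, and a log2 ratio sets the mutant level plus 1 over the parental level plus 1. Measured means a level of at least 1 in either group. That left 9 of the 10 genes, all but CA9, of which 8 were lower and 1, EGLN3, was higher; ARNT and EGLN3 change sign when their most abundant transcript alone is read. The median log2 ratio of the 9 was -0.30. Over all 14856 measured genes the median was -0.01, the quartiles were -0.28 and 0.27, and 50.6% were lower.

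**Figure D1:**
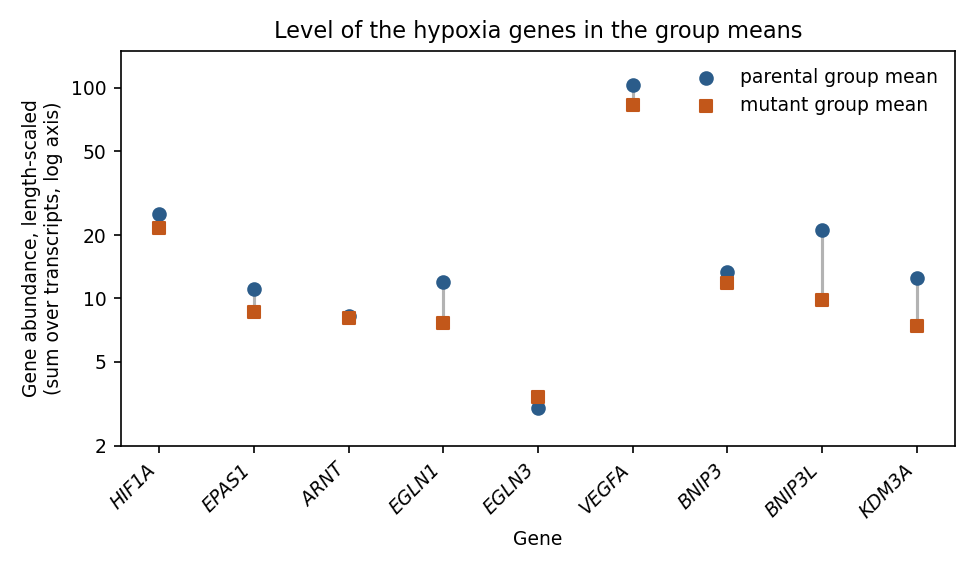
Gene abundance (length-scaled, log axis) of the 9 measured hypoxia genes, with circles for the parental and squares for the mutant group mean. BNIP3L shows the widest gap on the log axis, 9.88 against 21.2. EGLN3 is the only gene here with a higher mutant level, which turns slightly lower for its most abundant transcript alone. CA9, near 0 in both groups, is left out.

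By the authors' deposited table no transcript of these genes passed the 0.05 threshold after adjustment, where 0.0221% of the 140552 tested transcripts did. The 10 genes have 110 transcripts in the table, of which 83 carry a p-value, and their smallest adjusted p was 0.239, held by BNIP3L-201 in the authors' deposited table. At an unadjusted p under 0.05 in the authors' deposited table there were 2 lower transcripts, BNIP3L-201 and KDM3A-202, and 2 higher ones, VEGFA-201 and ARNT-205. That is 2.41% of the 83 in each direction, against 2.48% of all tested transcripts lower and 3.3% higher, so the share was near the background. When a gene was read by its most abundant transcript, 2 of 9 measured genes were lower at a p under 0.05 and 0 were higher in the authors' deposited table, where the shares of all measured genes were 8.63% lower and 5.17% higher.

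**Figure D2:**
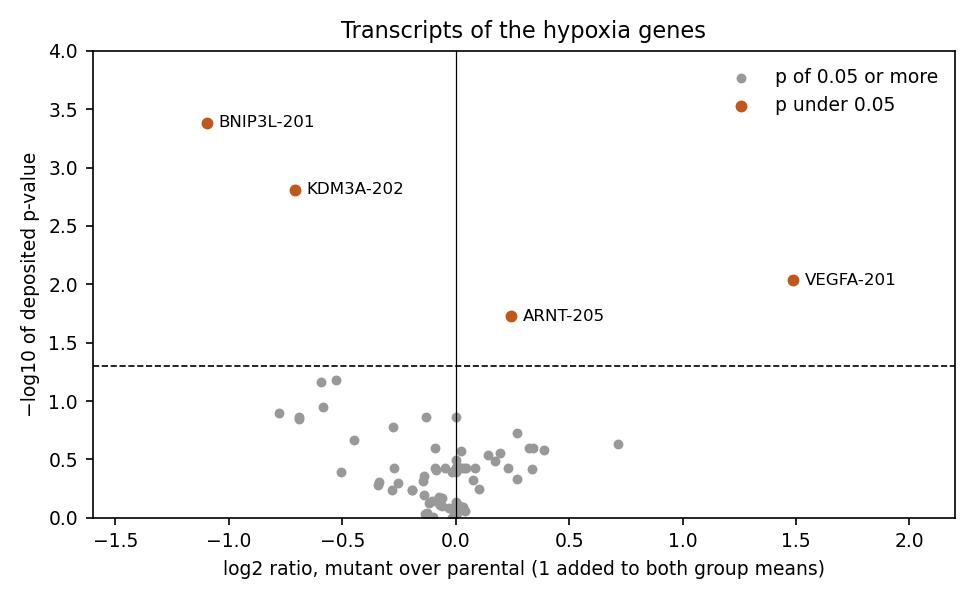
Each point is 1 of the 83 tested transcripts of the 10 hypoxia genes, with the log2 ratio on the x axis and −log10 of the deposited p-value on the y axis; the dashed line marks the unadjusted threshold. The 4 transcripts above the line are BNIP3L-201 and KDM3A-202 on the lower side and VEGFA-201 and ARNT-205 on the higher side.

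The alpha subunits were expressed at moderate levels and had somewhat lower means in the mutant group. None of their transcripts had a p under 0.05 in the authors' deposited table. HIF1A (chromosome 14, 61695513 to 61748259, plus strand), the broadly expressed alpha subunit, had a mutant level of 21.6 and a parental level of 25.2 by group mean, a log2 ratio of -0.21, and 30.5% of measured genes had a lower ratio. Its most abundant transcript, HIF1A-202, which encodes 826 residues, was at 9.44 against 10.9, for which the authors' deposited table gave p = 0.582. HIF1A-203, which encodes 827 residues, was at 5.26 against 8.45, for which the authors' deposited table gave p = 0.0682. These 2 transcripts differ by 1 encoded residue and 3 bases in length (3922 against 3919), so the split of reads between them is uncertain. HIF1A is poor in G and C (39.2% in HIF1A-202), and after removal of GC and length trends its log2 ratio was -0.08.

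EPAS1 (chromosome 2, 46293667 to 46386703, plus strand), the alpha subunit best known from endothelium and from kidney cells that make erythropoietin, was at 8.66 against 11.0, a log2 ratio of -0.32. Of measured genes 22.1% had a lower ratio. The protein-coding EPAS1-201, which encodes 870 residues, was nearly level at 5.73 against 6.20, for which the authors' deposited table gave p = 0.974. Most of the difference in the gene sum lay in EPAS1-206, annotated as a transcript with a retained intron, at 2.22 against 4.19, for which the authors' deposited table gave p = 0.137. Over protein-coding transcripts alone the log2 ratio of EPAS1 was -0.10. EPO, the erythropoietin gene and a classical EPAS1 target, was at 0.0476 against 0.211 (p = 0.0404 for EPO-201 by the authors' deposited table), under the level counted as measured.

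ARNT (chromosome 1, 150809705 to 150876768, minus strand), the shared beta subunit, was level at 8.11 in the mutant against 8.26 in the parental group, a log2 ratio of -0.02. Its main transcript ARNT-202, which encodes 789 residues, lay slightly the other way at 6.30 against 5.92, for which the authors' deposited table gave p = 0.474. ARNT-205, a retained-intron transcript, was at 0.234 against 0.0416, for which the authors' deposited table gave p = 0.0189, adjusted p = 0.671. At those means a library held an estimated 2.30 to 9.94 reads of ARNT-205 in the mutant group and 0.281 to 0.469 in the parental group, so this transcript rests on very few reads. ARNT2, the neuronal relative of ARNT, was at 3.95 against 5.52.

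The oxygen sensors lay at different distances from their parental levels. EGLN1 (chromosome 1, 231363751 to 231425044, minus strand), the main enzyme that hydroxylates HIF1A in normal oxygen and itself a target of the pathway, stood at 7.65 against 11.9, a log2 ratio of -0.58. Only 7.96% of measured genes had a lower ratio, and EGLN1-201, which held 98.7% of the gene's abundance, stood in the authors' deposited table with p = 0.113. At the group means a library held an estimated 878 to 3798 reads of EGLN1-201 in the mutant group and 948 to 1580 in the parental group. EGLN3 (chromosome 14, 33924231 to 34462774, minus strand), a sensor that hypoxia strongly induces in many cells, was lowly expressed at 3.39 against 3.01, a log2 ratio of 0.13. Its main transcript EGLN3-201 was at 2.05 against 2.09, for which the authors' deposited table gave p = 0.994. EGLN2, the sensor that hypoxia does not induce, was at 19.0 against 15.1, with a log2 ratio of 0.32 and a p of 0.209 for EGLN2-201 in the authors' deposited table. The difference between the EGLN genes was itself not tested, since group means do not allow it.

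VEGFA (chromosome 6, 43770184 to 43786487, plus strand), the secreted growth factor of blood vessels, was the most abundant of the 10 genes, at 83.2 in the mutant against 103 in the parental group, and 95.8% of measured genes had a lower parental level. Its log2 ratio was -0.30. VEGFA is spliced into many forms, and 19 of its 32 transcripts carried values. VEGFA-205, annotated with 371 encoded residues, was at 27.3 against 39.7, for which the authors' deposited table gave p = 0.0655. VEGFA-206, the short form of 147 encoded residues, was at 4.54 against 8.50, for which the authors' deposited table gave p = 0.127. VEGFA-215, which retains an intron, was at 28.5 against 34.9, for which the authors' deposited table gave p = 0.578.

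The transcript VEGFA-201 lay the other way. VEGFA-201, 993 bases long with 163 encoded residues, had a mutant level of 8.77 and a parental level of 2.48 by group mean, a log2 ratio of 1.49, for which the authors' deposited table gave p = 0.00927, adjusted p = 0.558. It made up 10.5% of VEGFA abundance in the mutant group and 2.42% in the parental group. The other 18 transcripts together were at 74.5 against 100.2, a log2 ratio of -0.42. Transcripts of VEGFA share most exons, and the sources used here do not say how reads were divided among them, so the size of this shift is uncertain. A library held an estimated 143 to 619 reads of VEGFA-201 at the mutant mean and 28.0 to 46.6 at the parental mean.

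**Figure D3:**
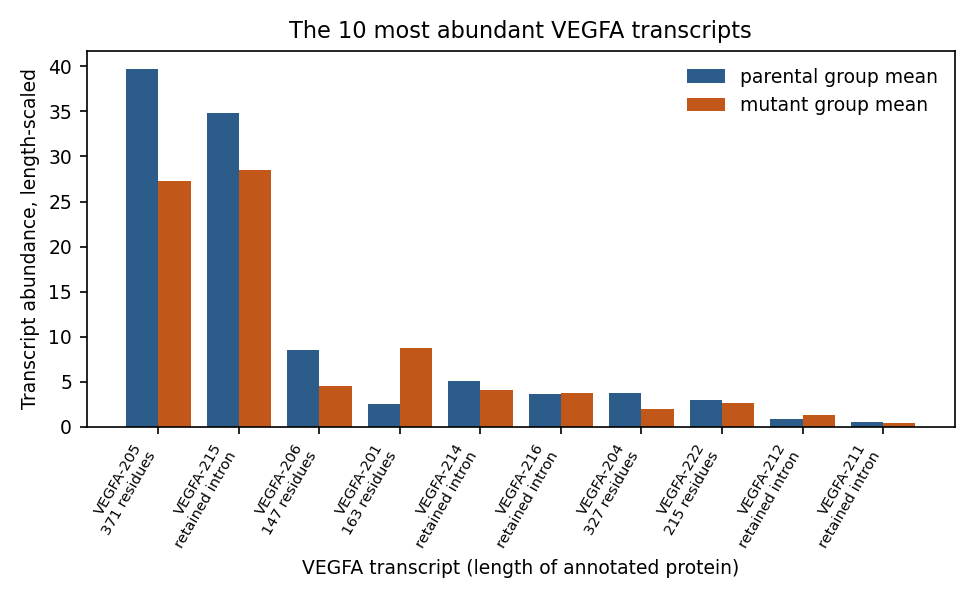
Bars give the length-scaled abundance of the 10 most abundant VEGFA transcripts as the parental and mutant group means; labels give the length of the annotated protein or "retained intron". VEGFA-205 and VEGFA-206 have shorter mutant bars, and VEGFA-201 stands out with 8.77 in the mutant against 2.48 in the parental group.

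The paired mitophagy receptors BNIP3 and BNIP3L (also called NIX) are proteins of the outer mitochondrial membrane that bind the autophagy machinery, and both are known hypoxia targets. BNIP3L (chromosome 8, 26382898 to 26505636, plus strand) had the lowest log2 ratio of the 10 genes, -1.03. It stood at 9.88 in the mutant against 21.2 in the parental group, and 1.49% of measured genes had a lower ratio. BNIP3L-201, which encodes 219 residues and held 95.6% of the gene's abundance, was at 9.10 against 20.6, for which the authors' deposited table gave p = 0.000412, adjusted p = 0.239. At these means a library held an estimated 540 to 2334 reads in the mutant group and 843 to 1406 in the parental group. With p-values of most abundant transcripts adjusted again over the measured genes, BNIP3L was at 0.104, so it was not called there either. BNIP3L-201 has 38.9% GC, and after removal of GC and length trends the log2 ratio of the whole gene was -0.89.

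BNIP3 (chromosome 10, 131966455 to 131982013, minus strand) stood at 11.9 against 13.4, a log2 ratio of -0.16. Its main transcript BNIP3-201 was at 9.28 against 11.3, for which the authors' deposited table gave p = 0.507, and BNIP3-202, which encodes a shorter protein of 219 residues, was at 1.46 against 1.04. In the parental group BNIP3L was more abundant than BNIP3, and in the mutant group BNIP3 was the more abundant. BNIP3 has processed pseudogene copies that can share reads with it: BNIP3P1 was at 4.61 against 6.36, and 5 others were under 0.3 in both groups.

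CA9 (chromosome 9, 35673856 to 35681159, plus strand), the carbonic anhydrase of the cell surface and one of the most tightly hypoxia-dependent genes known, was practically silent in both groups. It stood at 0.0684 in the mutant and was listed at 0 in the parental group. The mutant value equals 2 reads by the estimated size of 1 read, 1 on CA9-202 in the shallowest mutant library and 1 on CA9-203 in the deepest, and neither lies on a transcript annotated as coding. A count of 0 in the parental libraries allows up to 3 reads over these libraries of 9190000 to 15310000 reads, for counting error only, and no fold is given. This gene has its ACGTG match just before the RefSeq start, inside the gene limits given here, as shown above.

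KDM3A (chromosome 2, 86440647 to 86492716, plus strand) encodes a demethylase that removes methyl groups from lysine 9 of histone H3 and is a direct hypoxia target. It had a mutant level of 7.39 and a parental level of 12.5 by group mean, a log2 ratio of -0.68, and 5.28% of measured genes had a lower ratio. KDM3A-202, which encodes the 1321-residue protein, was at 4.88 against 8.62, for which the authors' deposited table gave p = 0.00155, adjusted p = 0.363. KDM3A-201 and KDM3A-203 encode a protein of the same length and were nearly level, at 0.503 against 0.590 and at 0.372 against 0.443. KDM3A-210, with a retained intron, was at 0.592 against 1.26, for which the authors' deposited table gave p = 0.405. An estimated 371 to 1604 reads of KDM3A-202 stood behind the mutant mean in a library and 452 to 753 behind the parental mean.

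**Figure D4:**
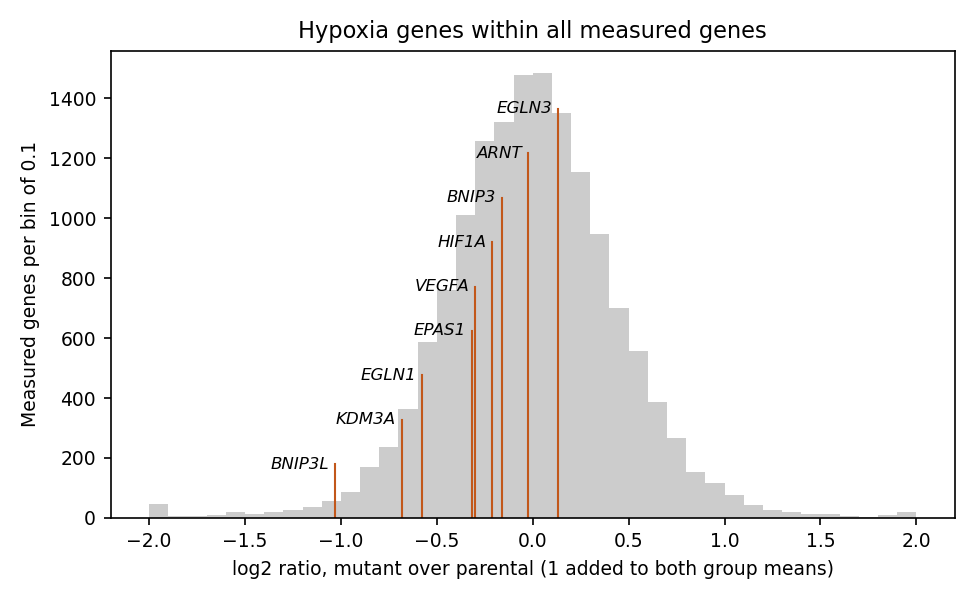
Grey bars count all 14856 measured genes by log2 ratio in bins of 0.1, with values past 2 in either direction placed in the end bins; orange lines mark the 9 measured hypoxia genes, at heights chosen for legibility. BNIP3L at -1.03, KDM3A at -0.68 and EGLN1 at -0.58 lie in the lower tail, and the other 6 lie between -0.32 and 0.13.

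The order of the levels within each group was VEGFA first and HIF1A second, and EGLN3 and CA9 last. Between them the parental order was BNIP3L, BNIP3, KDM3A, EGLN1, EPAS1 and ARNT, from 21.2 down to 8.26. In the mutant group the order was BNIP3, BNIP3L, EPAS1, ARNT, EGLN1 and KDM3A, from 11.9 down to 7.39. Which neighbours in these orders differ beyond the spread between libraries cannot be told from group means.

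The wider pathway was read through 6 lists with 120 different genes, of which 100 were measured. By most abundant transcript, the authors' deposited table put 8 of these lower and 8 higher at a p under 0.05, 8% in each direction against 8.63% and 5.17% of all measured genes, and 0 passed an adjusted p of 0.05. The median log2 ratio of the 100 was -0.11, with 59 lower and 41 higher. Apart from measured genes with a p under 0.05, any gene of these lists named here or above was chosen after its values were seen.

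Genes that control the HIF proteins or assist them lay around parental level. Of 20 such genes 19 were measured, 10 higher and 9 lower; their median log2 ratio was 0.08. VHL, the recognition subunit of the ligase, was at 42.6 against 36.1, and HIF1AN, the asparagine hydroxylase that blocks coactivator binding, at 4.92 against 4.29. ELOC, the ligase's elongin C subunit, was the lowest of the list at 42.8 against 69.1. Its most abundant transcript ELOC-201 was at 19.3 against 26.5, for which the authors' deposited table gave p = 0.227. HIF3A was near 0 in both groups. OS9, a lectin of protein quality control that also binds the HIF1A sensor complex, was the one member with a p under 0.05: OS9-202 was at 20.5 against 10.1 (p = 0.0282 in the authors' deposited table), while the whole gene was at 51.4 against 45.3. That 1 higher gene is 5.26% of the list, against 5.17% of all measured genes.

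Other HIF target genes were more often lower than higher. Of 45 genes 40 were measured, 31 lower and 9 higher, and their median log2 ratio was -0.20. By the authors' deposited table, p was under 0.05 for 4 lower genes (10%) and 1 higher gene (2.5%). The shares of all measured genes were 8.63% lower and 5.17% higher, so the lower share was near the background. CXCR4, a chemokine receptor, had the lowest log2 ratio of the list, -1.64, with the gene at 6.80 against 23.3. For CXCR4-201 the authors' deposited table gave p = 0.000421, adjusted p = 0.239. GBE1, the glycogen branching enzyme, was at 3.69 against 7.40, FAM162A, a mitochondrial protein, at 15.8 against 30.1, and SLC2A1, the main glucose transporter, at 15.4 against 28.1. Their most abundant transcripts had p-values of 0.00708, 0.00926 and 0.0101 in the authors' deposited table. JMJD6, an oxygen-dependent hydroxylase, lay higher at 23.0 against 13.1 (p = 0.00387 for JMJD6-202 in the authors' deposited table).

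LDHA, which makes lactate, was at 202 against 296 and the glycolytic enzyme PGK1 at 103 against 118, and their most abundant transcripts had p-values of 0.322 and 0.764 in the authors' deposited table. PFKFB3, a regulator of glycolysis, was at 9.74 against 8.55. The highest log2 ratios among the other HIF target genes were those of 3 genes. P4HA2, a collagen prolyl hydroxylase, was at 28.3 against 13.7, NDRG1, a stress-response gene, at 47.6 against 24.6, and DDIT4, an inhibitor of mTOR signalling, at 119 against 62.9. Their most abundant transcripts had p-values of 0.0740, 0.188 and 0.147 in the authors' deposited table, so none of the 3 passed the threshold.

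**Figure D5:**
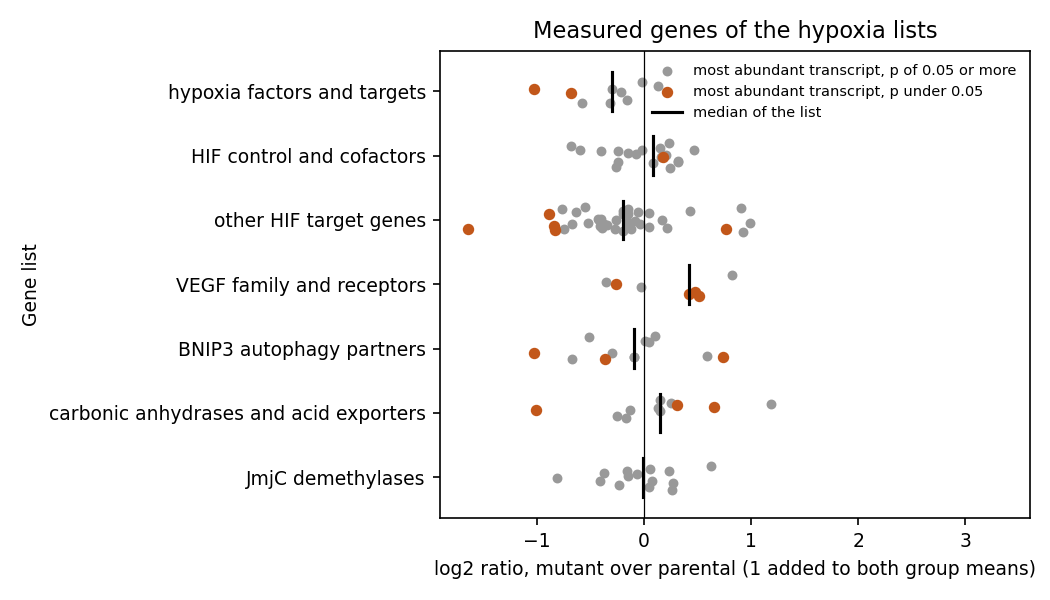
Points are the log2 ratios of measured genes in each list, with the 9 measured hypoxia factors and targets on top; orange marks a deposited p under 0.05 for the gene's most abundant transcript, unadjusted, and the black bar is the list's median. The median is -0.30 for the hypoxia factors and targets, -0.20 for other HIF target genes and 0.42 for the VEGF family and receptors.

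The relatives and receptors of VEGFA were spread on both sides of their parental levels. Of 12 genes 7 were measured, 4 higher and 3 lower, and their median log2 ratio was 0.42. By the authors' deposited table, p was under 0.05 for 3 higher genes (42.9%) and 1 lower gene (14.3%). Over all measured genes the shares were 5.17% higher and 8.63% lower, and the list shares rest on 7 genes. VEGFB was at 40.5 against 28.9 and VEGFC, a lymphatic growth factor, at 4.26 against 2.68, with p-values of 0.0186 for VEGFB-201 and 0.0298 for VEGFC-202 in the authors' deposited table. FLT4, the receptor for VEGFC, was at 12.9 against 9.35 (p = 0.0371 for FLT4-201 in the authors' deposited table). After removal of GC and length trends, the log2 ratio was 0.28 for VEGFB in place of 0.47 and 0.14 for FLT4 in place of 0.42. FLT1, a receptor and decoy for VEGFA, was at 2.51 against 3.22 (p = 0.0178 for FLT1-201 in the authors' deposited table), and KDR, the main signalling receptor of endothelium, was near 0 in both groups.

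Among 12 measured partners of BNIP3 and BNIP3L in mitophagy, 5 were higher and 7 lower, around a median log2 ratio of -0.09. By the authors' deposited table p was under 0.05 for 1 higher (8.33%) and 2 lower (16.7%), against 5.17% and 8.63% of all measured genes. FUNDC1, another hypoxia-linked mitophagy receptor, was at 7.58 against 16.5, a log2 ratio of -1.03 like that of BNIP3L, and for FUNDC1-202 the authors' deposited table gave p = 0.00662. GABARAPL2, an autophagosome protein that binds such receptors, was at 57.3 against 74.0 (p = 0.0476 for GABARAPL2-201 in the authors' deposited table). OPTN, a receptor for ubiquitin-marked mitochondria, lay higher at 17.9 against 10.3 (p = 0.0429 for OPTN-205 in the authors' deposited table). PINK1, the kinase that starts the ubiquitin route, was level at 30.1 against 29.1.

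Of 18 carbonic anhydrases and acid exporters besides CA9, 11 were measured, 7 higher and 4 lower, around a median log2 ratio of 0.14. By the authors' deposited table p was under 0.05 for 2 higher (18.2%) and 1 lower (9.09%), against 5.17% and 8.63% of all measured genes. CA5B, a mitochondrial carbonic anhydrase, was at 0.618 against 2.26, and CA5B-201 stood in the authors' deposited table with p = 5.13e-05, adjusted p = 0.103. CA12, the hypoxia-linked relative of CA9 at the cell surface, was at 2.58 against 1.90 (p = 0.00341 for CA12-201 in the authors' deposited table). The cytosolic CA2 had the highest ratio of the list, 117 against 51.0, but for CA2-201 the authors' deposited table gave p = 0.316.

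Unlike KDM3A, no other listed demethylase of its enzyme class had a p under 0.05 in the authors' deposited table for its most abundant transcript. Of all measured genes 8.63% were lower and 5.17% higher at a p under 0.05. All 14 listed genes were measured, 7 higher and 7 lower, around a median log2 ratio of -0.01. The closest relatives of KDM3A were KDM3B, at 18.0 against 18.9, and JMJD1C, at 14.2 against 11.5. KDM6A, a demethylase of lysine 27 of histone H3 that senses oxygen, was at 5.03 against 9.55, and for KDM6A-204 the authors' deposited table gave p = 0.508. Whether KDM3A differs from these relatives was not tested, since group means do not allow a test of the difference.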

How the data were processed

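Per the labels' protocols, total RNA was made into libraries with the NEBNext Ultra kit and random primers, and per the submitters' processing notes reads went through bcl2fastq, STAR and Partek on hg38. The sources used here do not state the strand setting, the transcript annotation or any filter. The authors deposited 1 table of 203376 transcripts. Its group value, deposited as a score called LSMean, is the mean over a group's libraries of a length-scaled abundance plus 1, and with 1 taken off it summed to 496162 in both groups. The deposited p-value, its adjusted form, the ratio and the signed fold change are scores of the authors' own comparison, and 62824 transcripts carry none. The deposited signal called total counts equals 3 times the sum of both group means and was not used for levels.

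Gene levels are sums over transcripts. GENCODE release 29, on the same build, matched 99.1% of transcripts and gave types, lengths, GC content and positions. In transcripts with reads in 1 library alone (p = 0.374 in the authors' deposited table), value times length gathered at whole multiples of what 1 read is worth, which gave estimated depths; reads per library assume the group mean. Calls use the deposited adjusted p at 0.05. The fits of single libraries that were planned need libraries and were left out. The genes and lists were chosen with earlier results of these data known, and of each list up to 4 genes per direction with the smallest p under 0.05 were named, except 1 gene that is not reported here. GC and length trends were running medians over 40 bins averaged over 5. Scripts ran in Python 3.11.15 with pandas 2.3.3 and were tested on simulated data.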

Additional observations from a re-analysis of the deposited data

How the results depend on the processing

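Of the 10 genes 8 were lower in the mutant group, and this number was 7 with protein-coding transcripts only and 8 under the other 5 settings (an added 0.1, the most abundant transcript alone, ratios relative to the median gene, scaling without mitochondrial DNA genes, and GC and length trends removed). ARNT changed sign, to 0.0782 with its most abundant transcript alone and 0.0954 with protein-coding transcripts only, and EGLN3 to -0.0169 with its most abundant transcript alone; these settings use fewer transcripts. No member transcript was called at an adjusted p of 0.05 or 0.01, with the p-value of the factor Type, or with p-values adjusted again over transcripts of at least 0.1 or over measured genes, and 4 had an unadjusted p under 0.05. List genes at an unadjusted p under 0.05 numbered 8 lower and 8 higher, where 8.63% of all measured genes were lower and 5.17% higher. They numbered 6 and 6 at a level of at least 5, and 10 and 8 with no filter. At an absolute log2 ratio of at least 0.5, a rule without a test, they numbered 17 and 11. The shares of all genes under these other rules are not given here, so these counts alone do not show a shift of the lists. No scaling moved the median of all genes by more than 0.03. No paired analysis was possible because the table holds group means and no libraries; for the same reason leaving out single libraries and a second test tool were not run. Depth limits CA9 and the minor transcripts.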

Other observations

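Antisense RNAs at HIF1A were scarce: HIF1A-AS1 was at 0.0348 in the mutant against 0.180 in the parental group (p = 0.0496 in the authors' deposited table) and HIF1A-AS2 at 0.0264 against 0.131. Since the use of strand in counting was not given, reads of these RNAs and of HIF1A cannot be told apart where they overlap.

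Measured genes within 5 Mb of BNIP3L on chromosome 8 lay lower by their median. Of 77 such genes 52 were lower and 25 higher, with a median log2 ratio of -0.25, against -1.03 for BNIP3L itself. By most abundant transcript, 14 of the 77 were lower and 3 higher at a p under 0.05 in the authors' deposited table. Over all measured genes the shares at that threshold were 8.63% lower and 5.17% higher. The nearest on either side were PPP2R2A, at 37.0 against 53.1, and PNMA2, at 24.4 against 20.2. Around EPAS1 the median was -0.21 over 38 genes, around EGLN1 -0.17 over 69, around KDM3A -0.15 over 41 and around BNIP3 0.32 over 22. Around the remaining genes it was nearer level: HIF1A -0.07, VEGFA -0.06, CA9 -0.02, ARNT -0.01 and EGLN3 0.05. The part that position has in the levels of these genes was not tested.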
